A study of Homo sapiens with 6 samples.

Results

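The genes described here are the long noncoding RNAs and small nucleolar RNA (snoRNA) host genes measured in C4-2 cells, a human prostate cancer line. They were taken from the platform's probe annotation as every gene whose symbol begins with LINC, SNHG or PCAT and a number, or with MALAT1, NEAT1, PCA3 or GAS5. The rule found 474 genes among 14812 named genes: 457 LINC genes and 17 others. NEAT1 had no named probeset and was not analysed here. Each gene was represented by its brightest named probeset on an Affymetrix Human Gene 2.0 ST array. The 6 arrays fell into 3 groups of 2. The NU7441 group received 1 µM NU7441, a small-molecule inhibitor of the DNA-PKcs kinase, for 24 h. The DNA-PKcs knockdown group was transfected with a pool of small interfering RNAs against PRKDC, which encodes DNA-PKcs, for 96 h. The control group is labelled as treated with DMSO, and the labels do not say whether these cells also received the control siRNA pool. Thus transfection and the longer time cannot be told apart from the knockdown itself. All cells grew in medium with hormone. Both treatments were set against the same 2 control arrays. The labels call the arrays of a group biological replicates, with no further detail on the cultures.

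Long noncoding RNAs are transcripts without a recognised protein product, and many stay in the nucleus. A snoRNA host gene carries snoRNAs in its introns. These are cut out after splicing and guide the chemical modification of ribosomal RNA. The spliced exons of several hosts are degraded by nonsense-mediated decay, and many hosts start with a 5′ terminal oligopyrimidine tract (TOP), a C followed by a run of pyrimidines that links the transcript to growth signalling. MALAT1 is an abundant nuclear RNA of the splicing speckles. PCA3 is a prostate-specific transcript used as a urine marker of prostate cancer, and the PCAT genes were named as prostate cancer-associated transcripts. Most LINC symbols are serial names that say nothing of function.

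Values are the deposited linear probeset intensities, and how they were summarised and scaled is not stated in the labels or the table. Of the 474 genes, 118 had a mean log2 intensity of 5 or more (an intensity of 32), and 356, or 75.1%, lay under that line, against 41.7% of all named genes. The nearest genes inside the line were LINC02418 at 5.01 and LINC01134 at 5.02, and the nearest outside were LINC00693 at 5.00 and LINC00544 at 4.99. Values under the line are called near the floor, since no deposited value is under 16. The arrays differed at this dim end. For the 474 genes the median intensity was 21.9 and 23.1 with NU7441, 25.2 and 25.04 with knockdown, and 28.2 and 28.2 in controls. The number of the 474 genes with an intensity under 17 was 88 and 29 with NU7441, 16 and 28 with knockdown, and 3 and 2 in controls. Replicates also differed more in the treated groups. The median SD of log2 values over the 474 genes was 0.191 with NU7441, 0.150 with knockdown and 0.0877 in controls. PRKDC itself was not analysed here, since it had no named probeset, so the knockdown was not checked on its target. Markers fitted the prostate luminal label: 7 of 12 listed luminal genes were measured and 0 lay near the floor. Of the measured markers, 3 of 4 basal, 5 of 6 neuroendocrine, 4 of 4 leukocyte and 4 of 4 stromal and endothelial genes lay near the floor.

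With NU7441, 124 of the 474 genes passed the test against control: 16 were higher and 108 lower. That is 26.2%, against 33.2% of all named genes tested (10.8% higher and 22.4% lower). The test was limma's moderated test over all arrays and all named genes, with Benjamini-Hochberg adjusted p under 0.05. The direction of the calls depended on brightness. Among the 118 genes at or above the line, 16 were higher and 25 lower. That is 34.7%, against 42.1% of all named genes at that brightness (18.1% higher and 24% lower). Among the 356 genes near the floor, 0 were higher and 83 lower. After DNA-PKcs knockdown, 4 genes passed against control, 1 higher and 3 lower, or 0.844%, against 0.77% of all named genes (0.284% higher and 0.486% lower). At an unadjusted p under 0.05 the counts were 173 of the 474 genes with NU7441 and 95 with knockdown. Over all 14812 named genes they were 6793 with NU7441 and 2905 with knockdown. In bulk RNA, fewer cells of a type and less RNA per cell cannot be told apart. The plot of fold change against brightness shows where the calls lie.

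**Figure D1:**
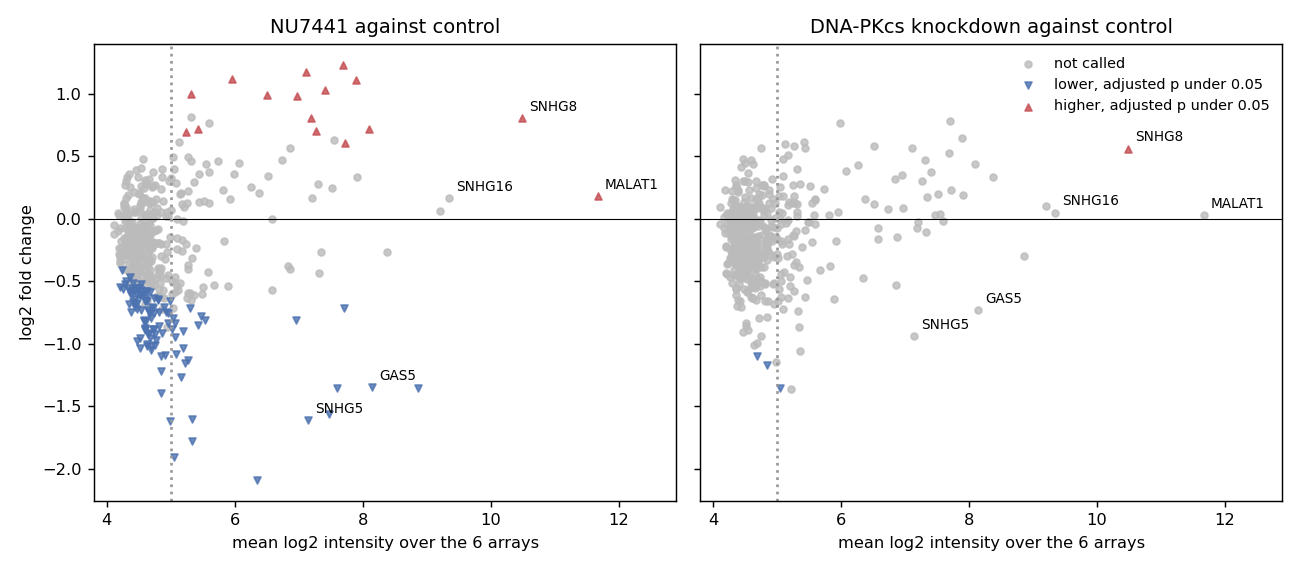
Log2 fold change against control of each of the 474 genes (vertical axis) plotted against its mean log2 intensity over the 6 arrays (horizontal axis), with NU7441 on the left and DNA-PKcs knockdown on the right. Upward triangles passed the test as higher, downward triangles as lower, and the dotted line marks a mean log2 of 5; on the left, the 83 calls under that line all point down.

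The snoRNA host genes split in direction under NU7441. Of the 9 SNHG genes and GAS5, 4 fell (SNHG5, GAS5, SNHG33 and SNHG20), SNHG8 rose, and 5 did not pass. The 5 of 10 called stand against 33.2% of all named genes, and 42.1% of those at or above the line. Their median log2 fold change was -0.41, against -0.23 over all named genes. SNHG5, GAS5 and SNHG8 kept their calls under both other scalings of the arrays. The counts were 1 higher and 2 lower after quantile normalization, and 3 higher and 2 lower after median centring. The promoters of the 5 called hosts are printed because this gene class is known for a TOP tract at the start, and to show where the longest match near the start lies. Sequences are from RefSeq, GRCh38.p14, read on the gene's strand from 70 bases before the annotated start to 40 bases from it onward. Where a gene had more than 1 annotated start, the start farthest upstream was used here and in all promoter counts. Capitals mark the longest tract of a C followed by at least 4 pyrimidines that begins within 25 bases of the start. Among tracts of equal length the first is marked.
GAS5: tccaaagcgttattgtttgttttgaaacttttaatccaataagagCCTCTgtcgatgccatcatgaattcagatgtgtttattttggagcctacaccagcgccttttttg
SNHG20: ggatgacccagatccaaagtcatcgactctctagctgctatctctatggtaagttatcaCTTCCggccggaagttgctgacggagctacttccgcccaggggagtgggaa
SNHG33: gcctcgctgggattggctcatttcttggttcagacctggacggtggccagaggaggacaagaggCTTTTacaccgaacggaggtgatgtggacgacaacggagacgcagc
SNHG5: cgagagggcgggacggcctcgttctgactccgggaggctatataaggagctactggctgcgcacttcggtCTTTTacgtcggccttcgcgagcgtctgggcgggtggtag
SNHG8: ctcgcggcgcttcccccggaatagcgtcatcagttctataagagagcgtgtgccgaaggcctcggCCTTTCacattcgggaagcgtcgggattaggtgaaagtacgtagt

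These windows lie at chr1:173869006-173869115 (minus strand, GAS5), chr17:77088573-77088682 (plus strand, SNHG20), chr3:183447538-183447647 (plus strand, SNHG33), chr6:85678694-85678803 (minus strand, SNHG5) and chr4:118278692-118278801 (plus strand, SNHG8). In SNHG5 the tract begins at the annotated start itself, in SNHG8 it begins 5 bases and in SNHG33 6 bases before it. In SNHG20 the match begins 11 bases before the annotated start, and in GAS5 25 bases before, at the edge of the window searched. The matches of SNHG33, SNHG20 and GAS5 end before the annotated start used, so they are not at the first base of that annotated transcript. The GAS5 window also holds a longer pyrimidine run near its right-hand end, outside the 25 bases searched. Other starts were not searched, so a tract at another start of these genes would be missed. Of the 9 host promoters in the table, 8 held such a tract, or 88.9%, against 56.4% of the 27305 promoters in all, so a match of this length is common. Their median GC content was 62.3%, against 58.3% over all promoters. A match describes the letters only and is no measure of control by growth signalling.

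SNHG5, the host of SNORD50A and SNORD50B, had the lowest NU7441 fold change of the host genes. Its intensity was 68.2 and 102 with NU7441, 141 and 124 with knockdown, and 236 and 274 in controls. The 3 groups did not overlap, with controls highest and NU7441 lowest. Its log2 fold change with NU7441 was -1.61 ± 0.23 (moderated standard error, n = 2 per group), or 3.05-fold lower, with limma adjusted p = 0.00167. The call held under each of the 14 alternative settings tried. The knockdown difference was -0.94 ± 0.23 (limma adjusted p = 0.0791) and missed the threshold, but passed it after quantile normalization (adjusted p = 0.0429).

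GAS5, whose transcript accumulates in growth-arrested cells and whose introns hold 11 snoRNA genes in the annotation, was also lower. Its intensity was 136 and 237 with NU7441, 321 and 236 with knockdown, and 455 and 460.0 in controls. Both treated groups lay under the controls and overlapped each other. The NU7441 log2 fold change was -1.35 ± 0.25, or 2.54-fold lower (limma adjusted p = 0.00504). The call was lost without control replicate 2 (adjusted p = 0.0515). The knockdown difference, -0.73 ± 0.25, did not pass (adjusted p = 0.158). GAS5-AS1, the antisense gene at the GAS5 locus, had 23.0 and 20.1 with NU7441, 33.9 and 46.2 with knockdown, and 45.3 and 45.6 in controls. It fell by 1.08 ± 0.24 on the log2 scale with NU7441 (limma adjusted p = 0.0108, lost without either control array). The spans of GAS5 and GAS5-AS1 overlap in the annotation, and how the probesets treat strand is not stated, so their signals may not be separate.

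SNHG8, the host of SNORA24, moved the other way and was the only one of the 474 genes to pass as higher with both treatments. Its intensity was 1762 and 1896 with NU7441, 1531 and 1560.4 with knockdown, and 1004 and 1089 in controls. All 4 treated arrays lay above both controls, and the NU7441 arrays above the knockdown arrays. The log2 fold change was 0.81 ± 0.08 with NU7441 (1.75-fold, limma adjusted p = 0.000422), a call that held under all 14 alternatives. With knockdown it was 0.56 ± 0.08 (1.48-fold, adjusted p = 0.0253), a call lost under 6 of 14, among them the removal of any control or knockdown array.

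The remaining hosts were dimmer or less changed. SNHG33 had 33.4 and 33.5 with NU7441, 55.3 and 48.2 with knockdown, and 57.0 and 60.3 in controls, a log2 fold change with NU7441 of -0.81 ± 0.23 (limma adjusted p = 0.026). SNHG20, host of SCARNA16, had 29.1 and 41.1 with NU7441, 38.9 and 45.8 with knockdown, and 57.6 and 61.0 in controls, a log2 fold change with NU7441 of -0.78 ± 0.26 (adjusted p = 0.046). In both genes all NU7441 and knockdown arrays lay under the controls. Neither call held after quantile normalization (limma adjusted p = 0.101 for SNHG33 and 0.128 for SNHG20) or median centring (0.138 and 0.203). The SNHG20 call was also lost with the compared groups alone (0.0746), 15 taken off the linear values (0.0642) and a replicate block (0.0512). SNHG15, host of SNORA9, had 181 and 144 with NU7441 and 183 and 186 with knockdown, against 125 and 142 in controls. Its treated arrays all lay above the controls, but neither difference passed as deposited (log2 0.28 ± 0.19 and 0.47 ± 0.19). SNHG16, host of SNORD1A to SNORD1C, had 733 and 654 with NU7441, 610.5 and 669 with knockdown, and 637 and 598 in controls, and did not pass in either comparison (log2 0.17 ± 0.11 with NU7441). After median centring SNHG15 and SNHG16 both passed as higher with NU7441 (log2 0.60 and 0.48).

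SNHG10 and SNHG17 each had 1 low NU7441 array. SNHG17 had 68.5 and 117 with NU7441, 149 and 140.2 with knockdown, and 113 and 119 in controls (NU7441 log2 -0.38 ± 0.26, limma adjusted p = 0.271). SNHG10 had 105 and 172 with NU7441, 166 and 171 with knockdown, and 179 and 184 in controls (NU7441 log2 -0.43 ± 0.23, adjusted p = 0.174). SNHG18 was near the floor, with 29.7 and 17.2 with NU7441, 31.3 and 28.5 with knockdown, and 23.6 and 29.8 in controls. The annotation places 27 small nucleolar or Cajal body RNA genes inside these 10 hosts. None of the 27 had a named probeset, so the snoRNAs themselves were not analysed here. The plot of hosts and prostate transcripts by array shows all these values.

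**Figure D2:**
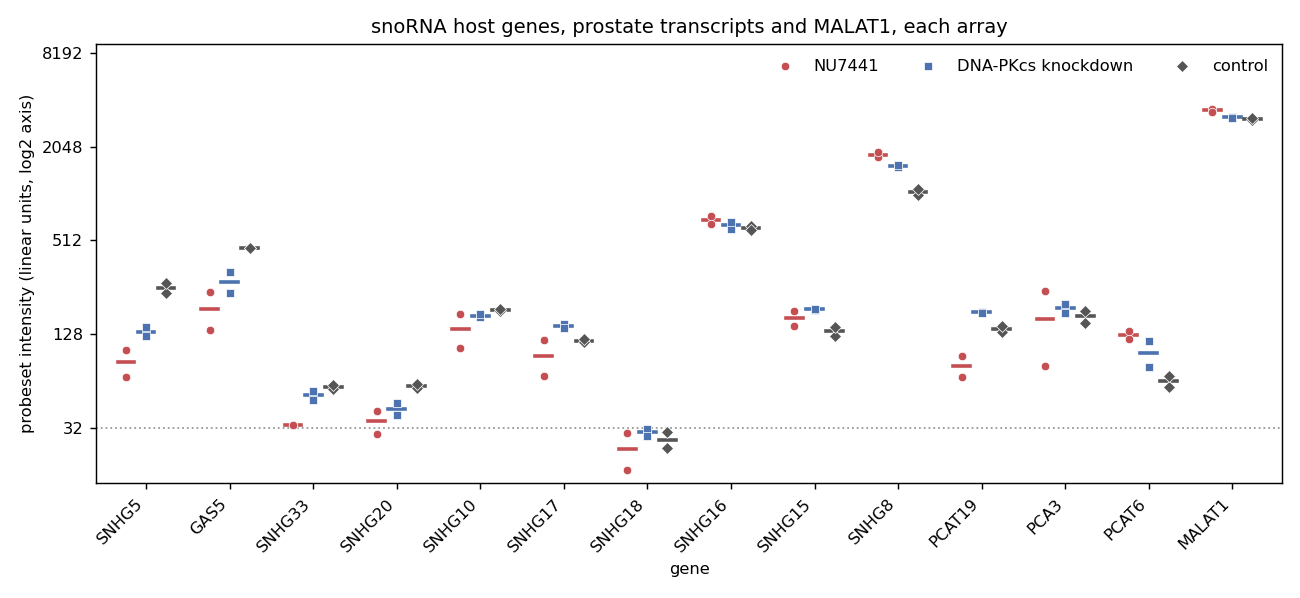
Probeset intensity on a log2 axis of the SNHG genes, GAS5, 3 prostate transcripts and MALAT1 on each array. NU7441 is drawn as circles, DNA-PKcs knockdown as squares and control as diamonds. The short lines are group means of the linear intensities and the dotted line is an intensity of 32. SNHG5 and GAS5 lie under control and SNHG8 above control in both treated groups.

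MALAT1 was the brightest of the 474 genes, with a mean log2 intensity of 11.67. It had 3599 and 3440.0 with NU7441, 3197 and 3141 with knockdown, and 3071 and 3143 in controls. The NU7441 arrays lay above all others, while the knockdown and control arrays were close together. The NU7441 log2 fold change was 0.18 ± 0.05, or 1.13-fold (limma adjusted p = 0.0207), and the knockdown value was 0.03 ± 0.05 (adjusted p = 0.783). The NU7441 call was lost without a mean-variance trend and without any 1 of 3 arrays (both controls and NU7441 replicate 1). The other MALAT1 probesets, which are dimmer, gave 0.55 and 0.43 with NU7441 and 0.27 and 0.21 with knockdown, so the size of the difference depended on the probeset.

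Among the prostate transcripts, PCAT6 rose and PCAT19 fell with NU7441, while PCA3 did not pass. PCAT6 had 119 and 134 with NU7441, 78.1 and 115 with knockdown, and 58.1 and 69.0 in controls. Its groups stood in that order without overlap. The NU7441 log2 fold change of 0.99 ± 0.24 (1.99-fold, limma adjusted p = 0.0149) was lost without either control array, and the knockdown value of 0.58 ± 0.24 did not pass (adjusted p = 0.229). PCAT19 had 67.5 and 92.0 with NU7441, 177 and 176 with knockdown, and 132 and 145 in controls. Here the treatments lay on opposite sides of control. The NU7441 log2 fold change was -0.81 ± 0.21 (limma adjusted p = 0.0173, lost under median centring at 0.0917 and without either control array), and the knockdown value was 0.35 ± 0.21 (adjusted p = 0.383). PCA3 had 79.2 and 241 with NU7441, 174 and 201 with knockdown, and 151 and 181 in controls. The NU7441 arrays of PCA3 fell on either side of the controls, and its log2 fold change was -0.26 ± 0.41 (adjusted p = 0.648). PCAT18 (17.3 and 18.3 with NU7441, 20.9 and 24.1 with knockdown, 18.4 and 23.5 in controls) and PCAT4 (16.7 to 21.9 over the 6 arrays) were near the floor.

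Of the 457 LINC genes, 13 rose and 102 fell with NU7441. The share that fell, 22.3%, was near the 22.4% of all named genes, and the share that rose was 2.84%, against 10.8%. Among the brighter LINC genes the lowest log2 fold changes were larger in size than the highest. This is a description only, since a gene can reach the line through its control arrays alone, as LINC02153 did. LINC02894 had 26.6 and 45.1 with NU7441, 111 and 102 with knockdown, and 136 and 160.1 in controls, and its NU7441 log2 fold change was -2.09 ± 0.27 (4.26-fold lower, limma adjusted p = 0.00131). LINC02153 had 20.0 and 17.4 with NU7441, 30.7 and 24.5 with knockdown, and 65.7 and 74.8 in controls, a NU7441 log2 fold change of -1.91 ± 0.24 (adjusted p = 0.00108). LINC01548 had 21.1 and 20.9 with NU7441, 37.3 and 49.9 with knockdown, and 78.9 and 65.8 in controls, a NU7441 log2 fold change of -1.78 ± 0.25 (adjusted p = 0.00178). In all 3 genes the groups did not overlap, with NU7441 lowest and control highest. The NU7441 arrays of LINC02153 and LINC01548 lay near the lowest deposited value, so their fold changes may be understated. LINC00489 had 26.0 and 21.4 with NU7441, 44.9 and 34.4 with knockdown, and 68.5 and 74.6 in controls (NU7441 log2 -1.60 ± 0.25, adjusted p = 0.00259, 0.0522 without control replicate 2).

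In LINC01128 and LINC02138 only the NU7441 arrays stood apart. LINC01128 had 73.3 and 99.6 with NU7441, 232 and 287 with knockdown, and 251 and 255 in controls. LINC02138 had 111 and 95.8 with NU7441, 288 and 239 with knockdown, and 265 and 264 in controls. Their knockdown arrays spread on either side of the controls. With NU7441 the log2 fold changes were -1.57 ± 0.20 for LINC01128 and -1.36 ± 0.17 for LINC02138 (limma adjusted p = 0.00121 for each). With knockdown the values were 0.03 ± 0.20 and -0.01 ± 0.17. LINC01089 had 181 and 390.4 with NU7441, 572 and 534 with knockdown, and 702 and 660.0 in controls, a NU7441 log2 fold change of -1.36 ± 0.28 (adjusted p = 0.0077), lost without either control array.

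The LINC genes that rose with NU7441 did so by up to 2.35-fold. LINC01000 had 381 and 276 with NU7441, 203 and 194 with knockdown, and 131 and 146 in controls (NU7441 log2 1.23 ± 0.19, limma adjusted p = 0.00223). LINC00467 had 205 and 215 with NU7441, 143 and 133 with knockdown, and 95.1 and 90.5 in controls (1.18 ± 0.17, adjusted p = 0.00202). LINC01003 had 304 and 385 with NU7441, 245 and 252 with knockdown, and 149.8 and 167 in controls (1.11 ± 0.17, adjusted p = 0.00214). These 3 showed the same order on every array: NU7441 highest, knockdown between, control lowest. Their calls held under all 14 alternatives. Their knockdown values of 0.53 ± 0.19, 0.57 ± 0.17 and 0.65 ± 0.17 did not pass (adjusted p = 0.173, 0.127 and 0.0885). LINC02035 had 117 and 90.6 with NU7441, 48.8 and 49.7 with knockdown, and 45.2 and 49.7 in controls, a NU7441 log2 fold change of 1.12 ± 0.23. LINC02210 had 262 and 242 with NU7441, 159 and 159 with knockdown, and 138 and 109 in controls (1.03 ± 0.18). LINC02447 had 56.1 and 69.6 with NU7441, 39.1 and 26.9 with knockdown, and 31.5 and 30.9 in controls (1.00 ± 0.27). In LINC02035 and LINC02447 the knockdown arrays overlapped the controls. The NU7441 calls of LINC02035 and LINC02447 were lost without either control array, and that of LINC02210 without control replicate 2.

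**Figure D3:**
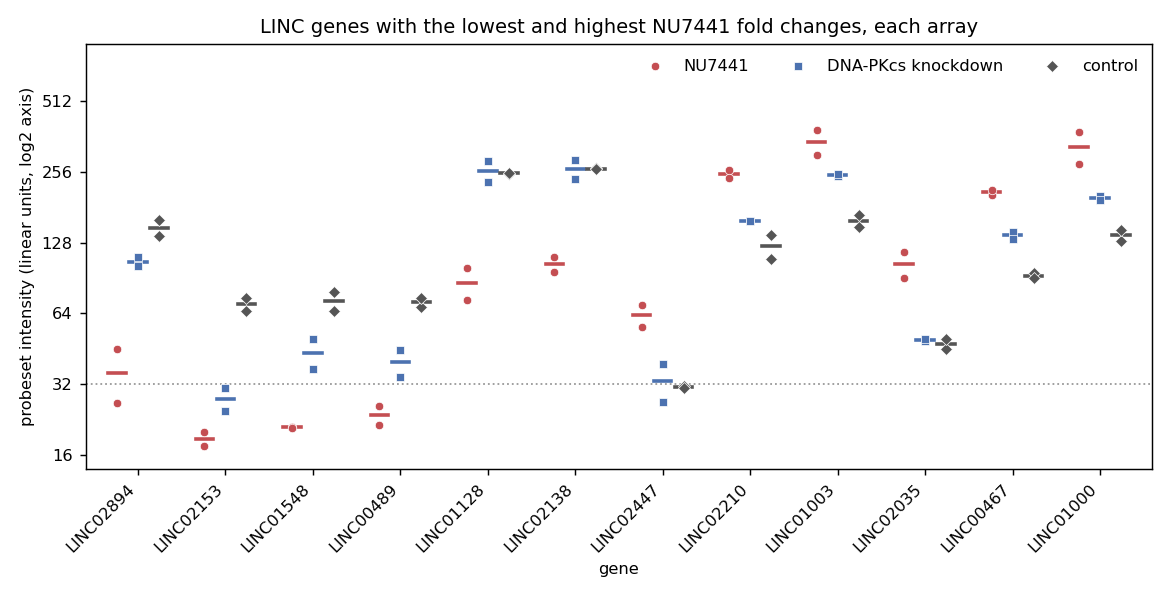
Probeset intensity on each array, on a log2 axis, of LINC genes at a mean log2 of 5 or more. They are the 6 with the lowest and the 6 with the highest called NU7441 fold changes. NU7441 is drawn as circles, DNA-PKcs knockdown as squares and control as diamonds. Short lines are group means of the linear intensities and the dotted line is an intensity of 32. LINC01128 and LINC02138 show only the NU7441 arrays apart, at 73.3 to 111 against 251 to 265 in controls.

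Near the floor, all calls with NU7441 were lower as deposited, as were most calls among the dim genes of the whole table. The median log2 fold change of the 356 dim genes was -0.27, and over all 6172 named genes under the line it was -0.29, with 45 called higher and 1235 lower (20.7%). After quantile normalization 6 of the 356 were higher and 18 lower, and after median centring 11 were higher and 18 lower. Among the 118 brighter genes the split of 16 higher and 25 lower became 22 and 17 after quantile normalization, and 33 and 14 after median centring. Those scalings gave a median over all named genes of 0.01 and 0.08, against -0.23 as deposited. The prevailing direction of the brighter genes thus turned with the scaling. Some dim genes differed by far more than this median. LINC02817 had 20.7 and 18.7 with NU7441, 25.5 and 29.1 with knockdown, and 59.7 and 61.0 in controls (NU7441 log2 -1.62 ± 0.22, limma adjusted p = 0.00146). LINC00607 had 16.02 and 20.4 with NU7441, 27.6 and 27.5 with knockdown, and 46.6 and 48.2 in controls (-1.39 ± 0.22, adjusted p = 0.00241). In both genes the controls lay above an intensity of 32 and all other arrays under it. Of the 124 NU7441 calls, 13 held under every alternative that tested them: LINC00467, LINC00607, LINC01000, LINC01003, LINC01128, LINC01548, LINC01704, LINC02138, LINC02153, LINC02817, LINC02894, SNHG5 and SNHG8. Without control replicate 1 the count of calls was 21, and without control replicate 2 it was 13.

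**Figure D4:**
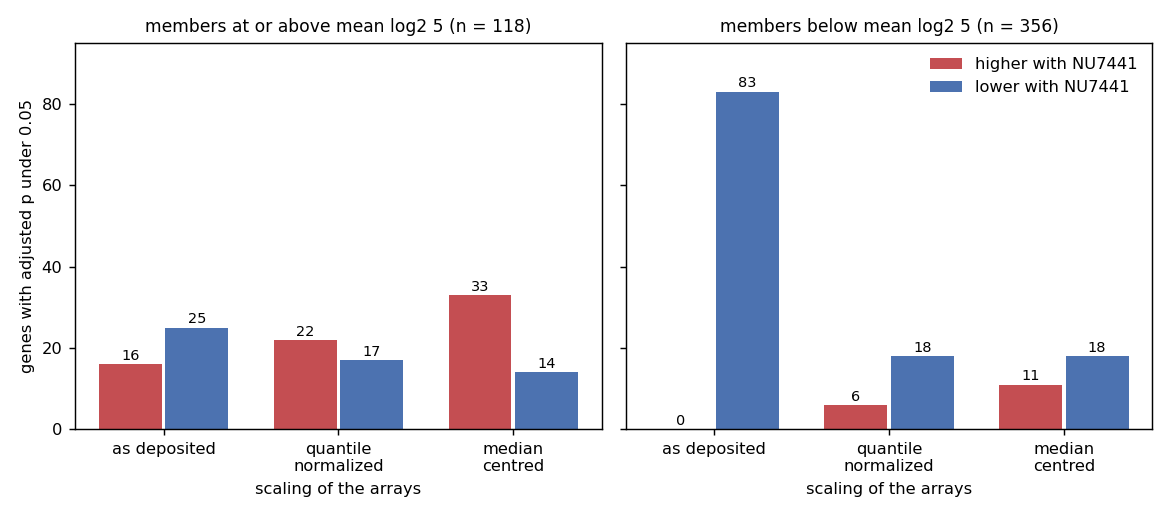
Number of genes that passed the NU7441 test (vertical axis) as higher and as lower under 3 scalings of the arrays, for the 118 genes at or above a mean log2 of 5 on the left and the 356 genes under it on the right. The 83 lower calls on the right drop to 18 under both other scalings, and on the left the higher calls outnumber the lower ones only after rescaling.

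After DNA-PKcs knockdown the called genes were SNHG8, higher, and LINC02153, LINC01704 and LINC00520, lower. All 4 were called in the same direction with NU7441, a comparison that shares the control arrays. LINC01704 had 22.9 and 21.3 with knockdown and 20.6 and 22.2 with NU7441, against 49.97 and 49.7 in controls. LINC00520 had 19.1 and 20.7 with knockdown and 21.6 and 19.4 with NU7441, against 40.7 and 44.3 in controls. In both, the treated groups overlapped each other and lay near the lowest deposited value. The knockdown log2 fold changes were -1.35 ± 0.24 for LINC02153, -1.17 ± 0.20 for LINC01704 and -1.10 ± 0.19 for LINC00520 (limma adjusted p = 0.0437 for each). None of the 4 calls held under every alternative. The count depended on which arrays set the spread. With the knockdown and control arrays fitted alone, 65 genes passed, 13 higher and 52 lower, against 19.2% of all named genes, and with any 1 control or knockdown array left out 0 passed.

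Set directly against NU7441, knockdown gave 15 called genes, 10 higher and 5 lower, or 3.16%, against 8.67% of all named genes (5.83% higher and 2.84% lower). Among the 118 brighter genes 11 passed (9.32%, against 13.6% at that brightness). Of the 15, 14 were also called with NU7441 against control, a comparison that shares the NU7441 arrays, and 0 with knockdown against control. LINC00161 had 373 and 334 with knockdown and 129.7 and 120.1 with NU7441, and 198 and 211 in controls. The treatments thus lay on opposite sides of control. The difference between them was 1.50 ± 0.16 on the log2 scale (2.83-fold, limma adjusted p = 0.00196). Against control, LINC00161 had a log2 fold change of 0.79 ± 0.16 with knockdown (adjusted p = 0.0559, and 0.0225 after median centring) and -0.71 ± 0.16 with NU7441 (adjusted p = 0.00997, and 0.096 after median centring). PCAT19, also split around control, differed by 1.16 ± 0.21 (2.24-fold, adjusted p = 0.0124).

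Most other differences between the treatments were in genes called against control with NU7441 and not with knockdown. LINC02894 was 3.07-fold higher with knockdown than with NU7441 (log2 1.62 ± 0.27, limma adjusted p = 0.0108), LINC01128 3.02-fold (1.59 ± 0.20, adjusted p = 0.00332) and LINC02138 2.54-fold (1.34 ± 0.17, adjusted p = 0.00363). LINC01548 and LINC01089 were higher by 2.05-fold and 2.08-fold, but each of these calls was lost under 8 of 14 alternatives. LINC01548 did not pass under either rescaling (adjusted p = 0.0544 after quantile normalization and 0.0529 after median centring), and LINC01089 did not after median centring (0.0502). Over the alternatives the log2 difference of LINC01089 ranged from 0.50 to 1.61. In the other direction, LINC02035 (log2 -1.06 ± 0.23), LINC01446 (-0.89 ± 0.19), LINC01004 (-0.88 ± 0.19) and LINC01000 (-0.71 ± 0.19) were lower with knockdown. None of these calls held with the compared groups alone (limma adjusted p = 0.0654 to 0.0912). That of LINC01000 was also lost with the mean of its probesets (log2 -0.36, adjusted p = 0.238), without a trend and with 15 taken off the linear values. LINC01446 had 99.5 and 109 with knockdown and 181 and 206 with NU7441, and 105 and 91.4 in controls. LINC01004 had 108 and 127 with knockdown and 233 and 198 with NU7441, and 132 and 114 in controls. In both the knockdown arrays overlapped the controls and NU7441 stood above. Near the floor, LINC01093 had 38.4 and 38.7 with knockdown, 18.5 and 18.0 with NU7441, and 39.8 and 37.8 in controls (log2 1.08 ± 0.21, adjusted p = 0.0161). Its second probeset averaged 23.9 with knockdown, 23.6 with NU7441 and 23.9 in controls, and with the mean of both probesets the difference was 0.53 and did not pass (adjusted p = 0.124). LINC00940 and LINC00460 were also higher with knockdown than with NU7441 (0.82 ± 0.20 and 0.78 ± 0.20), calls lost under both rescalings. LINC00293 was lower (-0.69 ± 0.18), a call lost with the compared groups alone (limma adjusted p = 0.154), without a trend and with 15 taken off the values. Without NU7441 replicate 2 the count was 87 and without NU7441 replicate 1 it was 39. With either control array left out 5 passed, and with either knockdown array left out 0 passed (82 and 68 at an unadjusted p under 0.05).

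**Figure D5:**
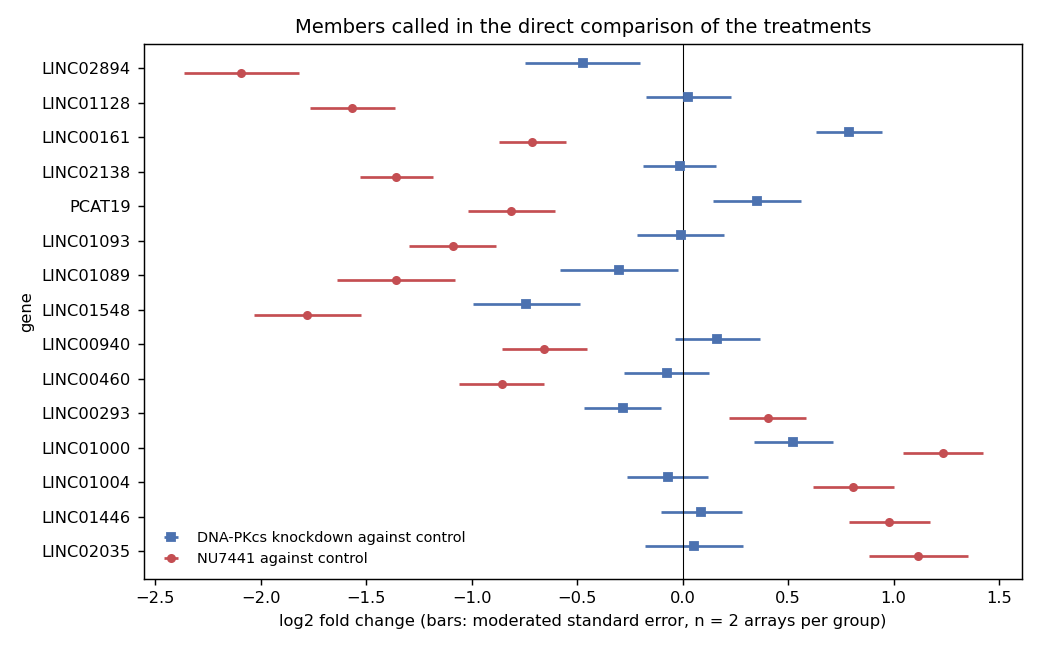
Log2 fold change against control (horizontal axis) of the 15 genes called between the treatments, with DNA-PKcs knockdown as squares above NU7441 as circles for each gene; bars are moderated standard errors, n = 2 arrays per group. LINC00161 lies at 0.79 with knockdown and -0.71 with NU7441, while LINC01128 and LINC02138 lie near 0 with knockdown.

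Probesets of 1 gene did not always move together. Of the 34 genes with more than 1 named probeset, 16 had probesets of both signs with NU7441. LINC00987, singled out after its values were seen, had 610.0 and 574 with NU7441, 703 and 526 with knockdown, and 599 and 537 in controls on its brightest probeset, a NU7441 log2 fold change of 0.06 ± 0.14. Its second probeset averaged 205 with NU7441, 568 with knockdown and 722 in controls, log2 differences of -1.82 with NU7441 and -0.37 with knockdown. The other probesets of LINC01000 gave 1.17 and -0.25 with NU7441, with the negative value on the dimmest of the 3.

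A measured protein-coding gene within 10000 bases was found for 77 LINC genes, and for 8 of those called at or above the line with NU7441. Of these 8 neighbours, 2 rose, 3 fell and 3 did not pass, and 3 of 8 had the sign of their LINC gene. Over all 23 called LINC genes with such a neighbour, 15 had its sign, and over all 77 LINC genes 48 did, with 8 neighbours higher and 19 lower. Most of these LINC genes lie near the floor, where most values were lower. LINC00467 rose beside TRAF5, an adaptor of tumour necrosis factor receptors, which fell by 1.07 ± 0.23 (log2, limma adjusted p = 0.00895). LINC00847 (log2 0.70 ± 0.19) overlaps ZFP62 on the opposite strand, and ZFP62 had -1.05 ± 0.18 (adjusted p = 0.0036). The dimmer LINC00847 probeset gave -0.17, and the LINC00847 call was lost with the mean of its probesets (log2 0.27, adjusted p = 0.385) and without either control array. LINC02035 rose beside SLC49A4, which also rose (0.66 ± 0.17, adjusted p = 0.017). PCAT6 starts close to KDM5B, a histone H3 lysine demethylase transcribed the opposite way, and KDM5B rose with it (1.25 ± 0.15, adjusted p = 0.00104). Other neighbours of genes outside LINC did not move with them. PRUNE2, which overlaps PCA3 on the opposite strand, rose (0.93 ± 0.09), while MYO1G beside SNHG15 (-0.42 ± 0.14) and PRCD beside SNHG16 (-0.73 ± 0.25) fell. PCA3, SNHG15 and SNHG16 did not pass. The neighbours of GAS5, GAS5-AS1, PCAT19 and SNHG10 did not pass.

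Of the 474 genes, 339 had a promoter in the RefSeq table. Their median GC content was 49.3%, against 58.3% over all promoters, and the observed over expected CpG ratio was 0.294 against 0.577. Brightness went with base composition. The 89 promoters of genes at or above the line had 55.3% GC, and the 250 of genes near the floor had 48.5%. Among the brighter genes, the pyrimidine tract was found in 9 of 11 promoters of genes higher with NU7441, 9 of 20 of genes lower and 30 of 58 of genes not called. It was found in 53.9% of the 89 brighter promoters and 56.4% of all promoters. These counts are small, and a link between the tract and the calls was not tested. The E-box CACGTG, searched on both strands, was found in 6.78% of promoters of the 474 genes and 7.41% of all, and the ETS motif CCGGAAG in 6.49% and 10.6%.

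Genes that encode proteins processing these RNAs were measured as RNA, and no protein was measured. They are given beside all named genes at or above the line, of which 24% fell and 18.1% rose with NU7441. Of 12 measured genes of snoRNA particle proteins, 6 fell and 1 rose. After quantile normalization 5 fell and 1 rose, and after median centring 5 fell and 2 rose. Their median log2 fold change was -0.63 as deposited, against -0.23 over all named genes and -0.13 over those at or above the line. FBL, the 2′-O-methyltransferase of box C/D particles, had 778 and 835 with NU7441, 948 and 926 with knockdown, and 1272 and 1404 in controls. Its groups did not overlap. FBL fell with both treatments (log2 -0.73 ± 0.09 with NU7441, limma adjusted p = 0.000984, and -0.51 ± 0.09 with knockdown, adjusted p = 0.0437). The knockdown call of FBL was lost after median centring and without any 1 control or knockdown array. GAR1, a core protein of box H/ACA particles, fell by 1.60 ± 0.17 with NU7441, and NAF1, their assembly factor, by 1.80 ± 0.36. RUVBL2, an ATPase of particle assembly, rose (0.45 ± 0.13). The nuclear exosome is the 3′ to 5′ RNA-degrading complex. Of 13 measured genes of its subunits and partners, 7 fell and 0 rose as deposited (median -0.75). The counts stayed at 7 and 0 after quantile normalization, while 2 fell and 2 rose after median centring. EXOSC9 had -0.93 ± 0.24. Of 7 measured genes of nonsense-mediated decay factors, 3 fell and 1 rose (3 and 1 after quantile normalization, 2 and 2 after median centring). PNRC2 had -1.39 ± 0.29 and CASC3, of the exon junction complex, had 0.89 ± 0.15.

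Genes of paraspeckle and speckle proteins, measured as RNA, stand against the same 24% lower and 18.1% higher. Of 8 measured paraspeckle genes, 6 fell and 1 rose with NU7441 (median log2 -0.77). These counts were the same after quantile normalization, while 4 fell and 1 rose after median centring. HNRNPH3 had -1.74 ± 0.23, DAZAP1 -1.50 ± 0.23, SFPQ -0.49 ± 0.11 and RBM14, which rose, 0.67 ± 0.17. HNRNPK fell after knockdown (-0.73 ± 0.13, limma adjusted p = 0.0437), a call lost without any 1 control or knockdown array. Of 10 measured speckle genes, 6 fell and 1 rose (median -0.60). Quantile normalization left these counts unchanged, while 5 fell and 2 rose after median centring. ACIN1 had -1.29 ± 0.21 and SON, a speckle scaffold, had 0.62 ± 0.14. Of 8 measured messenger RNAs that start with a TOP tract and encode no ribosomal protein, 2 rose and 1 fell (median 0.17). The same counts were seen after quantile normalization, while 5 rose and 1 fell after median centring. EEF2, the translation elongation factor, had 1441 and 1551 with NU7441, 865 and 904 with knockdown, and 824 and 765 in controls, a NU7441 log2 fold change of 0.91 ± 0.09 (adjusted p = 0.000422). The NU7441 arrays of EEF2 stood well above all others. NAP1L1, a histone chaperone, fell by 1.03 ± 0.14. With knockdown, 1 snoRNA particle gene and 1 paraspeckle gene passed as deposited, FBL and HNRNPK, and 0 of the other 4 lists named here. After median centring HNRNPK passed and FBL did not. After quantile normalization 2 snoRNA particle genes, 1 paraspeckle, 1 nonsense-mediated decay and 1 speckle gene passed with knockdown, all lower.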

How the data were processed

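Total RNA of C4-2 cells was amplified, labelled with biotin and hybridised to 6 arrays, 2 per group, per the labels' protocols. The authors deposited linear intensity values for 44629 probesets; background correction, summarisation and scaling are not stated in the labels or the table. The platform annotation gave 1 symbol to 15835 probesets and none to 28794. All 474 gene IDs of the described genes matched the GRCh38.p14 gene table. The log2 of the deposited intensity was analysed with no further scaling. Each gene was represented by its brightest probeset. All 6 arrays entered 1 linear model, which left 3 residual degrees of freedom, fitted with limma 3.58.1 in R 4.3.3, with empirical Bayes moderation and a mean-variance trend. Tests were two-sided, and p-values were adjusted by Benjamini-Hochberg over 14812 genes at a threshold of 0.05. Values after ± are moderated standard errors. The fit was tested on simulated data. With 2 arrays per group the number of arrays limits the precision. The members and gene lists were chosen with earlier results of these data known. Named genes are the SNHG, PCAT, GAS5, MALAT1 and PCA3 genes, the 6 highest and 6 lowest called LINC genes of each comparison at a mean log2 of 5 or more whose groups did not overlap, the 2 highest and lowest called genes under 5, and the 2 highest and lowest of each list; others are stated where they appear. Alternatives were quantile normalization, median centring, 15 taken off the linear values, no trend, dim genes left out, the mean of a gene's probesets, the compared groups alone, a replicate block and each array left out.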

Additional observations from a re-analysis of the deposited data

How the results depend on the processing

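For NU7441 against control, the count of called genes was 124 as deposited, 63 after quantile normalization, 76 after median centring and 46 with dim genes left out (118 tested), and ranged from 13 to 190 with 1 array left out. The median log2 fold change was -0.26 as deposited, 0.0071 after quantile normalization, 0.057 after median centring, -0.93 with 15 taken off the linear values and -0.16 with dim genes left out, and ranged from -0.37 to -0.23 with 1 array left out. For knockdown against control, 4 genes were called, 7 after median centring, 2 with dim genes left out and 65 with the compared groups alone. The limma count was 0 with 15 taken off the values and 0 with no trend (62 and 89 at an unadjusted p under 0.05). It ranged from 0 to 66 with 1 array left out: 0 without either control array (40 and 35 unadjusted) or either knockdown array (67 and 71 unadjusted), and 66 without either NU7441 array. The median of -0.14 became 0.011 after quantile normalization, 0.036 after median centring, -0.37 with 15 taken off and 0.024 with dim genes left out. For knockdown against NU7441, 15 genes were called, 5 with the compared groups alone, and 0 to 87 with 1 array left out. The median of 0.11 became -0.0042 after quantile normalization, -0.031 after median centring, 0.43 with 15 taken off and 0.030 with dim genes left out, and ranged from 0.089 to 0.17 with 1 array left out. The replicate numbers did not pair the arrays: deviations from group means correlated at -0.068, -0.0052 and -0.013. With the replicate number as a block, 106 genes were called with NU7441, 1 with knockdown and 11 between the treatments. With NU7441, PCA3 reversed sign without NU7441 replicate 1, at 0.54, and stayed negative without NU7441 replicate 2, at -1.06. A reversal was also seen in EXOSC10, at 0.055 with the mean of its probesets. The cause was not tested. A leave-one-out fit assumes that the lone array varies like the other groups.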

Other observations

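Long noncoding RNA genes outside the symbol rule gave similar values. The gene table holds 913 other measured genes of this biotype. With NU7441, 61 rose and 169 fell (25.2%), and at a mean log2 of 5 or more 138 of 408 passed (33.8%), against 43.2% of protein-coding genes at that brightness. With knockdown 2 of the 913 passed. Of 25 measured genes on a list of well-known long noncoding RNAs, 4 rose and 4 fell with NU7441 as deposited. After quantile normalization 4 rose and 3 fell, and after median centring 8 rose and 1 fell. ZFAS1, itself a snoRNA host, had 205 and 295 with NU7441, 532 and 426 with knockdown, and 556 and 572 in controls. Its NU7441 arrays lay under all others (log2 -1.20 ± 0.18, limma adjusted p = 0.00226), as did those of DLEU1 (-0.95 ± 0.32, adjusted p = 0.0453). RPPH1, the RNA of ribonuclease P, had 2749.9 and 2111 with NU7441, 1587 and 1847 with knockdown, and 1535 and 1214 in controls (NU7441 log2 0.82 ± 0.14, adjusted p = 0.00372). CBR3-AS1 rose by 0.96 ± 0.15 (adjusted p = 0.0027).

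The summed intensity of the 6 measured neuroendocrine markers was 128 and 142 with NU7441, 175 and 146 with knockdown, and 204 and 193 in controls. With NU7441 3 of the 6 fell, and 5 of the 6 lay near the floor, where most genes fell. Its part in the results was not tested. The 7 luminal markers summed to 3851 and 4239 with NU7441, 3191 and 3109 with knockdown, and 3394 and 3292 in controls.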
